A study of Mus musculus with 2 samples.

Results

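The 53 protein-coding genes of the mouse annotation whose symbol is Ddx or Dhx followed by a number were examined for binding of YY1, a DNA-binding zinc finger protein that works as an activator at some targets and as a repressor at others. They were chosen by symbol, with earlier results of these data known, from the 21883 protein-coding genes placed on chromosomes in RefSeq's gene annotation of GRCm38.p6 (the assembly known as mm10), and comprise 37 Ddx and 16 Dhx genes. YY1 occupancy had been profiled in mature fat cells that floated free after collagenase digestion of inguinal fat (iWAT) from wild-type C57 male mice aged 8 to 10 weeks, with 1 library from mice after 7 days of cold stress and 1 library from mice raised at room temperature. The labels name the assay ChIP-seq and their protocols describe CUT&Tag, in which a tethered transposase cuts the DNA beside the antibody-bound protein. The authors deposited 1 peak list per library, with 1259 entries after cold and 165 at room temperature. A gene was counted as having a peak when a summit lay inside it or within 1 kb of one of its ends. With 1 library per condition no difference between conditions has a replicate check, and no test between them was made. Whether a library pooled several mice is not stated in the labels, and binding of YY1 does not measure the expression of a gene. Of 8 adipocyte marker genes, among them Adipoq, Plin1 and Pparg, 0 had a listed peak in either library, so the peak lists neither show nor contradict the labelled cell type.

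RNA helicases of the DEAD-box (Ddx) and DEAH-box (Dhx) families use ATP to unwind or remodel RNA and RNA-protein complexes. DEAD-box enzymes open short local duplexes and often act as clamps on RNA, whereas DEAH-box enzymes move along a strand and pull complexes apart. Between them they serve nearly every step in the life of an RNA, including spliceosome assembly, ribosome assembly, export, translation, decay and the sensing of viral RNA. Most are housekeeping genes, and several have more than one role, so each was placed in 1 role group only. The genes were taken by symbol, and whether each of them belongs to these families, or acts on RNA, was not checked.

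After cold, 11 of the 53 helicase genes had a YY1 peak (20.8%, 95% Clopper-Pearson interval 10.8 to 34.1), and at room temperature 2 did (3.77%, 0.46 to 13.0). Among all protein-coding genes the shares were 6.43% after cold and 0.864% at room temperature. The helicase genes had a median length of 22.8 kb, against 17.2 kb for all protein-coding genes, and a rule that counts summits inside genes favours longer ones. With gene ends only, 9 of the 53 had a cold peak, against 5.64% of all protein-coding genes. The median length was 19.1 kb for helicase genes with a cold peak and 23.8 kb for those without. The part of gene length in the shares was not tested. Ddx17 alone had a peak in both lists (1.89%, against 0.85% of all protein-coding genes). Ddx3x was listed at room temperature only, and the other 10 genes were listed after cold only. Among all protein-coding genes 1406 had a cold peak, 189 one at room temperature and 186 one in both. Most genes with a cold peak were thus listed after cold only, whether helicase genes or not. By symbol, 8 of 37 Ddx genes and 3 of 16 Dhx genes had a cold peak. The splicing helicases held 6 of the 11 genes. These and all later intervals describe counting error alone, and PCR copies may be among the fragments.

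The start regions of 3 of these genes carried letters of the YY1 recognition sequence close to a cold summit, and their promoter windows are shown for that reason. The windows come from RefSeq (GRCm38.p6), run 5′ to 3′ on the strand of the gene from 250 bases before an annotated transcription start to the first 50 transcribed bases, and were available for 47 of the 53 genes. Capitals mark a match to AANATGGCG, searched on both strands, in Ddx47 (chr6:135011362-135011661, plus strand) and in the third annotated start of Ddx5 (chr11:106788445-106788744, minus strand). In Dhx35 (chr2:158794557-158794856, plus strand) they mark AANATGGC, a form without the last G that was tried after the window had been seen.
Ddx47: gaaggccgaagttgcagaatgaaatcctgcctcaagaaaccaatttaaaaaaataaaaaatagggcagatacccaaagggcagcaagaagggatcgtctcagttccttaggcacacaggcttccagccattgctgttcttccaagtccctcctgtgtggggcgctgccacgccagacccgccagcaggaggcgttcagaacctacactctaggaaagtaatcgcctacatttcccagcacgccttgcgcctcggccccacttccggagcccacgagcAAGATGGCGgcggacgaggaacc
Ddx5: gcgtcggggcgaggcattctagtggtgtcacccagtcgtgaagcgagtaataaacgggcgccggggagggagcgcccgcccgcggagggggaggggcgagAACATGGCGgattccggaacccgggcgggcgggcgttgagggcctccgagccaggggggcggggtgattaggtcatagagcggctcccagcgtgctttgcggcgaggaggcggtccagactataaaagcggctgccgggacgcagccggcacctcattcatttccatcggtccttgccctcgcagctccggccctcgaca
Dhx35: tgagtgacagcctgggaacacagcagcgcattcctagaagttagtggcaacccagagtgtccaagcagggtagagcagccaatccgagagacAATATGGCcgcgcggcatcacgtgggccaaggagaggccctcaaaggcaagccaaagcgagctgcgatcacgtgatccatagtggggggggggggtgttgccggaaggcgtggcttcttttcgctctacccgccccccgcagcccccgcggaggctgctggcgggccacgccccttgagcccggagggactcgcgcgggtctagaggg
The match in Ddx47 began 27 bases after the transcription start, and its centre lay 24 bp from the cold summit. In Ddx5 the match began 150 bases before this start, and its centre lay 92 bp from the nearer of the gene's cold summits. The centre of the Ddx5 match falls on an annotated end of Cep95, a gene on the opposite strand. In Dhx35 the shorter form began 158 bases before the start and lay 14 bp from the summit.

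Matches to AANATGGCG stood in 5 of the 58 helicase promoter windows (8.62%), against 782 of all 32851 windows (2.38%). Of the 7 helicase windows that a cold peak overlapped, 2 held it (28.6%), and of the 51 others 3 did (5.88%). With the shorter ATGGCG, 2 of the 7 overlapped windows (28.6%) and 10 of the 51 others (19.6%) held a match, so these helicase shares were closer. Over all windows they stayed apart, with ATGGCG in 605 of 1075 overlapped by a cold peak (56.3%) and in 2328 of 31776 others (7.33%). Across the whole table AANATGGCG was in 419 of 1075 windows that a cold peak overlapped (39.0%) and in 363 of 31776 windows that none overlapped (1.14%). The 3 helicase matches without a listed peak in either library were in Dhx36, a helicase that resolves G-quadruplex structures, in Dhx15, which releases the spliced-out intron, and in Ddx19b, an mRNA export helicase. Their surroundings show the motif on the opposite strand, in capitals, with up to 15 bases on each side.
Dhx36: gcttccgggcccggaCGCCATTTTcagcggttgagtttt
Dhx15: tgccctcgtcgcggcCGCCATTTTagctcc
Ddx19b: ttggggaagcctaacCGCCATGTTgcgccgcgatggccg
All 3 matches began between 1 base before and 35 bases after the annotated start. The 7 overlapped windows belonged to Ddx17, Ddx39b, Ddx47, Dhx30, Dhx35 and, with a pair of starts, Ddx5. Those of Ddx17, Ddx39b and Dhx30 held neither form of the motif, which says only that these letters are not in those 300 bases. Most summits at these genes lay further downstream than the windows reach, and the sequence under them was not read.

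Of the splicing helicases, 6 of 14 had a cold peak (42.9%, 17.7 to 71.1) and 1 of 14 had one at room temperature (7.14%, 0.181 to 33.9). The group is the one with the most members listed, and its cold share stands beside 6.43% of all protein-coding genes. The groups were drawn up with earlier results of these data known, so this share is a description. Ddx17, also known as p72, regulates alternative splicing and acts as a coregulator of transcription factors. After cold it carried 3 summits in 1 interval (chr15:79545968-79547310), with 28 fragments (95% Poisson interval 18.6 to 40.5), 30 (20.2 to 42.8) and 33 (22.7 to 46.3). At room temperature it carried 1 summit with 11 fragments (5.49 to 19.7) in a narrower interval (chr15:79546171-79547148). The 11 fragments lay below each of the 3 cold values, and the intervals of the first cold summit and of the room temperature summit overlap slightly.

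The cold summit of Ddx17 upstream of the transcription start and its room temperature summit were 2 bp apart, at 345 bp (cold) and 343 bp (room temperature) from the start, so the same site was compared. The cold to room temperature ratio there was 3.0 (95% interval 1.48 to 6.58, counting error only). It is close to the ratio of 3.27 that is the median of the 154 peaks listed in both libraries with a background of at most 10 fragments (quartiles 2.57 and 4.17), and 37.7% of those peaks had a lower ratio. More cells with an occupied site, more binding per cell and a difference in how the libraries worked cannot be told apart with 1 library per condition. The other cold summits of Ddx17 lay 218 and 595 bp downstream of the start and had no summit of their own at room temperature, although the room temperature interval extended over the first of them. The cold interval spanned 1343 bp and was wider than 99.3% of the entries of its list. Ddx17 was 1 of 9 protein-coding genes with 3 or more cold entries, among 1406 genes with any.

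Ddx5, also called p68, is the closest relative of Ddx17 and shares its roles in splicing and transcription. It had 2 cold peaks, with 31 fragments (21.1 to 44.0; chr11:106787602-106788148) and 20 fragments (12.2 to 30.9; chr11:106788571-106788900), and no entry at room temperature. RefSeq gives Ddx5 3 transcription starts. The stronger summit lay 679 bp downstream of the innermost of them, and the weaker one 175 bp downstream of the middle one. Both summits were also within 1 kb of an end of Cep95, a centrosomal protein gene on the opposite strand, and the weaker one lay 92 bp inside it, so the peaks cannot be given to Ddx5 alone.

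Ddx39b, the UAP56 helicase that helps to load the spliceosome onto the branch point and also acts in mRNA export, had the highest-ranked helicase summit of the cold list, at place 187 of 1259. It carried 32 fragments after cold (21.9 to 45.2; chr17:35241774-35242504), 20.1-fold above its local background as the authors' list gives it, and had no room temperature entry. The snoRNA gene LOC115488830 lay 537 bp from this summit. Its close paralog Ddx39a had no peak in either list. Dhx38, the mammalian counterpart of yeast Prp16, which remodels the spliceosome before its second step, carried 26 fragments after cold (17.0 to 38.1; chr8:109565549-109565967). This summit lay 61 bp inside the end of Dhx38 and 92 bp upstream of the start of Txnl4b, itself a gene for a splicing-related protein, and the list cannot tell which of the 2 start regions it belongs to. Dhx35, a helicase found in spliceosomes, had 14 fragments (7.65 to 23.5; chr2:158794511-158794989), 169 bp upstream of its start. Ddx41, a spliceosomal helicase that has also been linked to DNA sensing, had the weakest entry of the group by rank, place 1234 of 1259. It carried 12 fragments (6.2 to 21.0; chr13:55536326-55536581) on a background of 1.99, a 4.35-fold enrichment with a q of 0.00114. Its summit also lay inside the lncRNA gene Gm46416. The 8 splicing members with no listed peak were Ddx20, Ddx23, Ddx39a, Ddx42, Ddx46, Dhx8, Dhx15 and Dhx16.

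**Figure D1:**
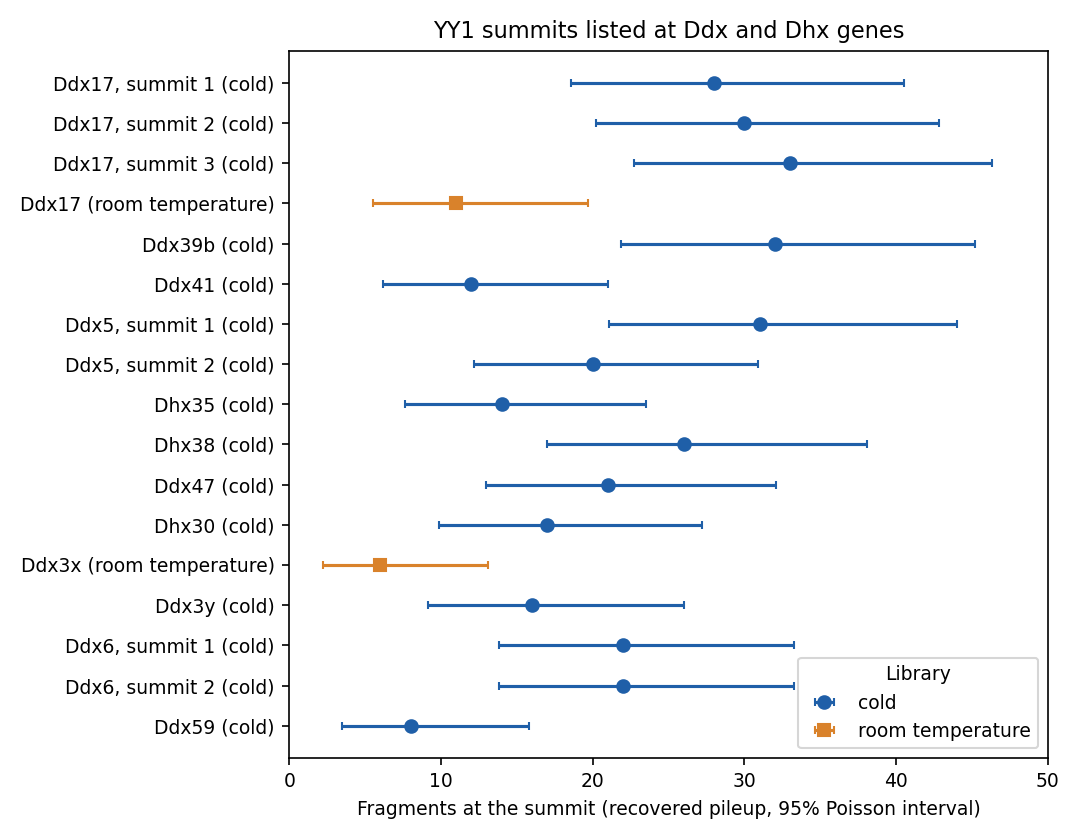
Fragments at each listed YY1 summit of a Ddx or Dhx gene (x axis), one row per summit, with cold circles and room temperature squares and 95% Poisson intervals as bars; summits of 1 gene are numbered by coordinate. Cold summits range over 8 to 33 fragments, and the 2 room temperature summits, at Ddx17 and Ddx3x, have 11 and 6.

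Ribosome biogenesis was the largest group, and 1 of its 16 members had a cold peak (6.25%, 0.158 to 30.2), a share near that of all protein-coding genes, while 0 of 16 had one at room temperature (upper bound 20.6%). The member was Ddx47, which acts in the early processing of ribosomal RNA. It carried 21 fragments after cold (13.0 to 32.1; chr6:135011490-135011842), with a summit 55 bp downstream of the start, the closest to a start of all helicase summits. The 15 without a peak included the nucleolar helicase Ddx21 and its paralog Ddx50, as well as Ddx10, Ddx18, Ddx24, Ddx27, Ddx31, Ddx49, Ddx51, Ddx52, Ddx54, Ddx55, Ddx56, Dhx33 and Dhx37. Of the pair of helicases that serve the mitochondrial ribosome and mitochondrial RNA granules, Dhx30 had a cold peak with 17 fragments (9.9 to 27.2; chr9:110100858-110101122), and Ddx28 had none. The Dhx30 summit lay 16636 bp from the nearer end of the gene, which reads as an intragenic site by the gene's outer ends, but it was 107 bp downstream of the second of its annotated starts.

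In the group of translation, mRNA export and decay, 2 of 10 genes had a cold peak (20.0%, 2.52 to 55.6) and 1 of 10 had one at room temperature (10.0%, 0.253 to 44.5), with no gene in both. The shares of all protein-coding genes were 6.43% after cold, 0.864% at room temperature and 0.85% in both, and the cold interval of the group includes the first of them. Ddx6, a core component of P-bodies that couples translational repression to decapping, carried 2 cold summits of 22 fragments each (13.8 to 33.3 for both) in 1 interval (chr9:44604238-44605152). They lay 1516 and 2017 bp inside the gene from its nearer end. Their backgrounds were 0.789 and 2.65 fragments, so equal pileups gave enrichments of 12.9-fold and 6.3-fold in the authors' list. The 7 members of this group without a peak in either list were Ddx1, Ddx19a, Ddx19b, Dhx9, Dhx29, Dhx34 and Dhx36.

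Ddx3x and Ddx3y are the X-linked and Y-linked copies of 1 DEAD-box helicase that acts in translation initiation on structured mRNAs, and these male mice carried both. Ddx3y had 16 fragments after cold (9.15 to 26.0; chrY:1285934-1286326), 456 bp downstream of its start, and no room temperature entry. Ddx3x had no entry after cold and 6 fragments at room temperature (2.2 to 13.1; chrX:13281205-13281465), 286 bp downstream of its start. The entry at Ddx3x was among the weakest of the room temperature list, at place 157 of 165, with a q of 0.0503, and 6 fragments is the lowest pileup in that list. A missing entry is not a measured 0, so the data do not show that either copy lacked YY1 in the other condition. The copies are closely related in sequence, and whether reads were divided between them was not tested.

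Neither the innate sensors nor the germ line helicases had a listed peak in either library. The sensors were Ddx58, which encodes RIG-I, Dhx58, which encodes its relative LGP2, and the antiviral factor Ddx60, and the germ line genes were Ddx4 (Vasa), Ddx25 and Ddx43. With 0 of 3 genes in each group the upper bound of the share is 70.8%, so these counts do not set either group apart from the others. Of the 5 remaining genes, Ddx59, known for its role in ciliary signalling, had a weak cold peak with 8 fragments (3.45 to 15.8; chr1:136415616-136415882), 461 bp downstream of its start and 213 bp from the lncRNA gene 9230116N13Rik. Ddx11, Dhx32, Dhx40 and Dhx57 had none. The role groups are small and their cold intervals overlap, including those of splicing and ribosome biogenesis, and the difference between groups was not tested.

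**Figure D2:**
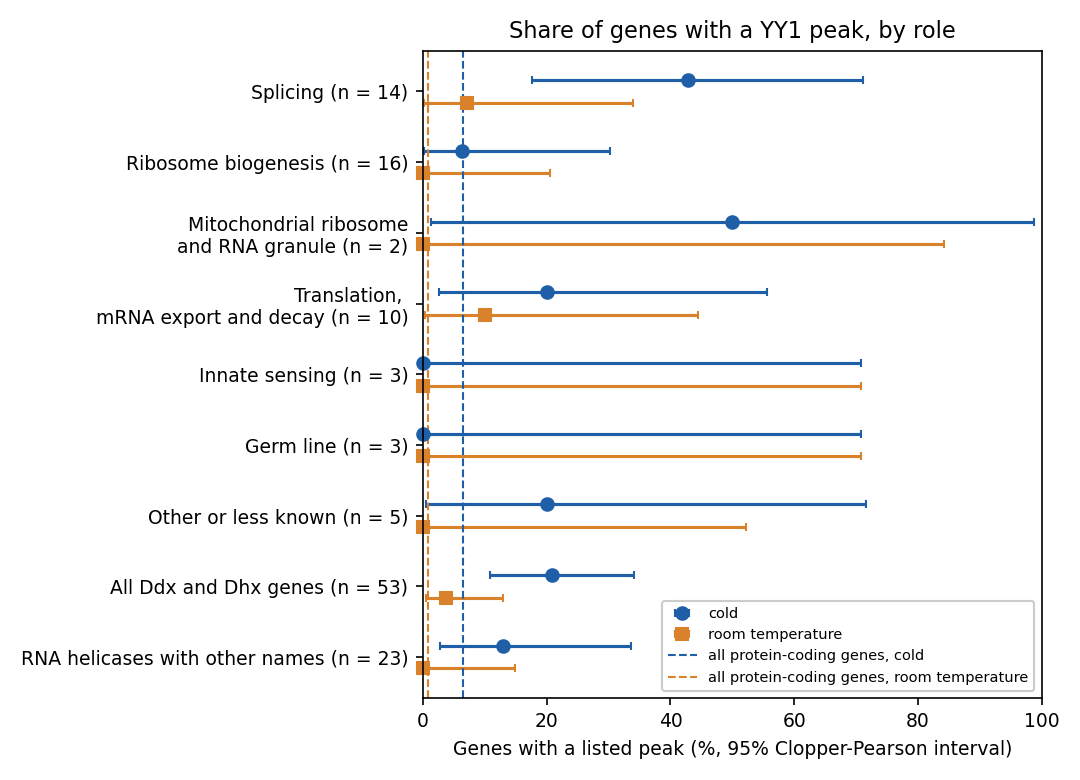
Percent of genes with a listed YY1 peak (x axis) in each role group, with cold circles above room temperature squares, 95% Clopper-Pearson intervals, and dashed lines at the shares of all protein-coding genes. The cold share is 42.9% for splicing and 6.25% for ribosome biogenesis, beside 6.43% of all protein-coding genes.

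The helicase summits lay near transcription starts, mostly on the downstream side. The rule favours positions near gene ends, since it counts a summit outside a gene only up to 1 kb from an end. It counts a summit inside a gene at any distance, so it favours the inside beyond 1 kb. Within 1 kb of a start it counts both sides alike. All 12 cold summits of the 9 genes with a start in the promoter table lay within 1 kb of one, at 55 to 679 bp, and 10 of the 12 were downstream. Their median position was 196 bp downstream. These positions were measured to starts of the helicase gene itself. For all cold summits the nearest start of any protein-coding gene was taken, so the measures are not the same. Of all cold summits on chromosomes with such starts, 943 of 1226 lay within 1 kb of one (76.9%). Of these 677 were downstream (71.8%), with a median position 65 bp downstream. The promoter table holds no start for Ddx6 and Dhx38, and their 3 cold summits are not in the helicase counts. Of the 15 cold summits, 13 lay inside the helicase gene. The exceptions were the upstream summit of Ddx17, 322 bp outside the gene, and that of Dhx35, 107 bp outside. Dhx35 was the one gene listed after cold only through a summit outside it, and among the genes not listed the nearest was Ddx42, with the closest cold summit 6781 bp away. Among the Ddx and Dhx genes, the median gene length was 19.1 kb for the 11 genes with a cold peak and 23.8 kb for the 42 without.

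**Figure D3:**
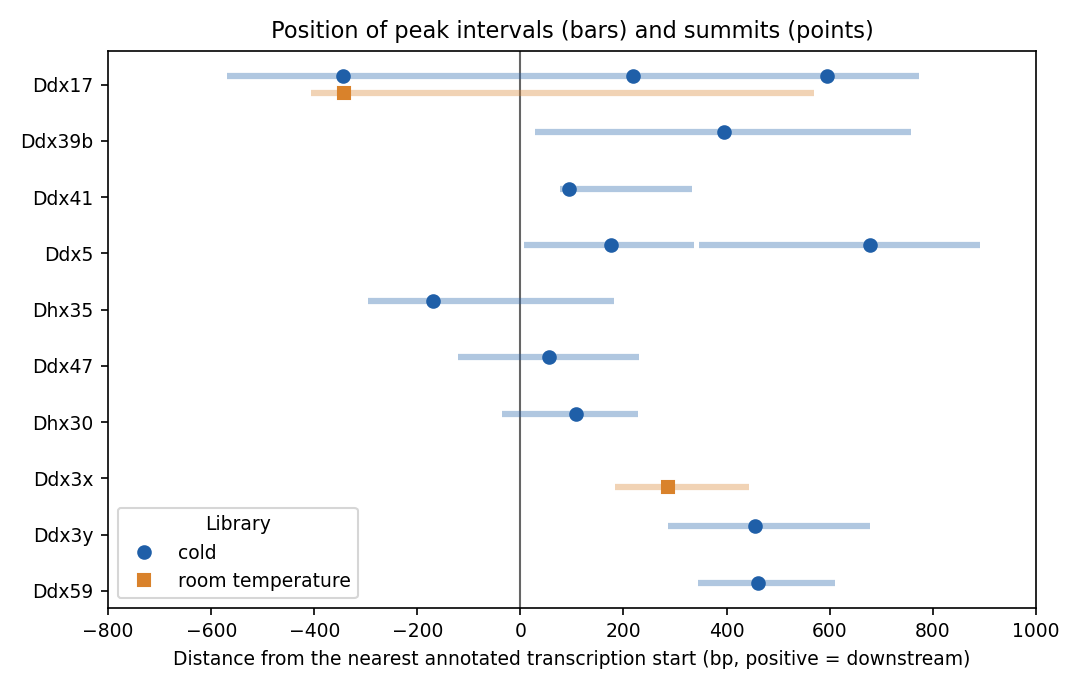
Distance of peak intervals (bars) and summits (points) from the nearest annotated transcription start of the same helicase gene in bp (x axis, positive downstream). Helicase genes with a start in the promoter table are shown, with cold above room temperature. Each interval of Ddx5 is drawn from the start nearest to its own summit. Of the 12 cold summits 10 lie downstream, and the room temperature summit of Ddx17 sits beside a cold one upstream of the start.

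In strength the helicase summits were ordinary members of the cold list. Their median was 22 fragments (range 8 to 33), beside 20 for all 1259 cold entries, and the best of them, at Ddx39b, stood at place 187. None was therefore among the 165 strongest cold entries, the number that the room temperature list holds. Across the whole cold list, an entry with 35 or more fragments was also listed at room temperature in 100 of 207 cases (48.3%), one with 25 to 34 fragments in 36 of 242 (14.9%), one with 15 to 24 in 25 of 501 (4.99%) and one with at most 14 in 3 of 309 (0.971%). No helicase summit had 35 or more. Of the 4 genes whose strongest summit had 25 to 34 fragments, Ddx17, Ddx39b, Ddx5 and Dhx38, only Ddx17 was listed at room temperature. The lowest background per base was 1.05 times as high in the cold list as in the other. Reading this as the ratio of depths is an assumption, since the control and settings of the peak calling are not stated. Both absolute depths are unknown. The room temperature list is the shorter one and the helicase peaks are of moderate strength. Whether the absent entries reflect less binding was not tested, and 1 library per condition could not show it. Tagging of open chromatin at gene starts, part of the background of the assay, was not told apart from YY1 binding.

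**Figure D4:**
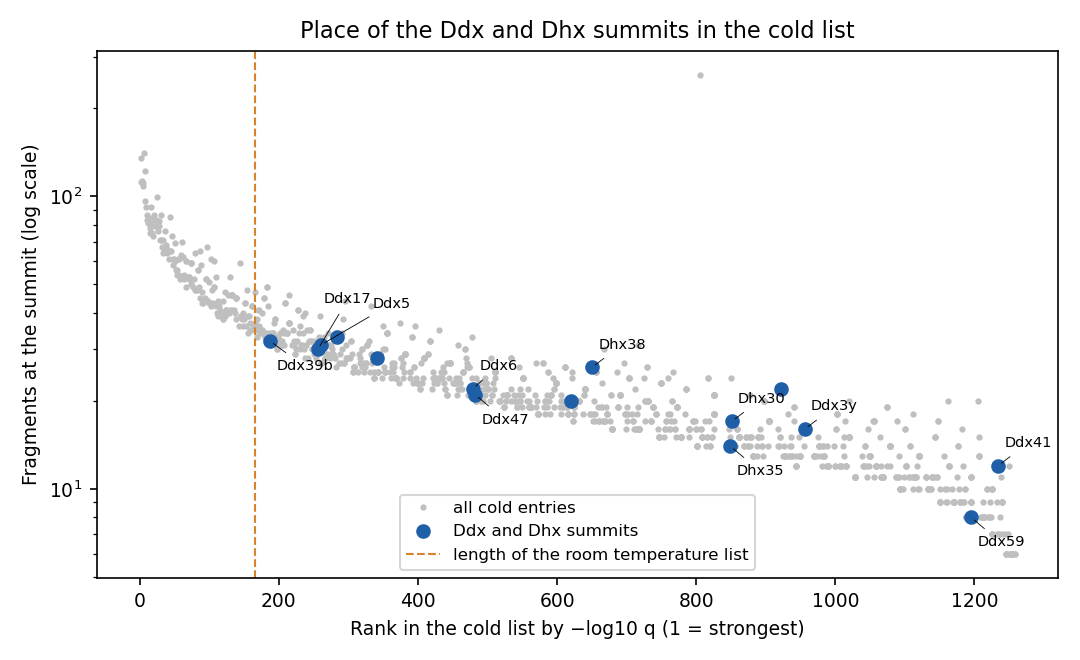
Fragments at the summit (y axis, log scale) against the rank of each cold entry by −log10 q (x axis), with Ddx and Dhx summits in blue, named at the best-ranked summit of each gene, over all cold entries in grey. All helicase summits stand to the right of the dashed line that marks the 165 strongest entries.

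RNA helicases of related families that bear other names were counted in the same way. Of 23 such genes, 3 had a cold peak (13.0%, 2.78 to 33.6) and 0 had one at room temperature (upper bound 14.8%), beside 6.43% and 0.864% of all protein-coding genes. The cold interval includes the share of all protein-coding genes and overlaps that of the Ddx and Dhx genes. Eif4a1, the DEAD-box helicase of the translation initiation factor eIF4F, had 26 fragments after cold (17.0 to 38.1), on a summit that also lay at Senp3. Helz had 14 (7.65 to 23.5) and Ighmbp2, beside the mitochondrial ribosomal protein gene Mrpl21, had 10 (4.8 to 18.4). The 20 without a listed peak included Eif4a2, Eif4a3, the spliceosomal helicase gene Snrnp200, the decay factor gene Upf1 and the viral RNA sensor gene Ifih1.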

How the data were processed

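YY1 CUT&Tag peaks were deposited by the authors as 1 narrowPeak list per library, so peaks were called per sample. The submitters' processing notes name mm10 and the tools BWA, SAMtools, MACS2, deepTools and DESeq2, without versions or settings. How duplicates were handled, and against which control peaks were called, is not stated there. Each deposited entry holds a score (10 times the −log10 p, with decimals dropped), a fold enrichment at the summit as a linear ratio, a −log10 p-value and a −log10 q-value. Other deposited columns are positions. Names of cold entries contain the number 4 and those of room temperature entries the number 30. If these were housing temperatures in °C, the baseline would be warmer than its label says; the groups follow the labels.

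The fragments at each summit were recovered as the whole pileup that fits both fold, (pileup + 1) / (background + 1), and the Poisson p, within 0.0002 on the −log10 scale for every entry. The inversion was tested on simulated data. Lists were compared by overlap of at least 1 bp. Genes came from RefSeq tables of GRCm38.p6, and starts and strands from its promoter windows; windows of 1839 overlapping pairs on opposite strands read as reverse complements of each other in all cases. Python 3.11.15, pandas 2.3.3 and scipy 1.17.1 were used. Members, role groups and lists were chosen with earlier results of these data known. All helicase genes with a peak were named, with any gene whose end lay within 1 kb of the same summit. No p-value was computed, because each condition has 1 library. Alternatives covered the gene assignment, the peak threshold, the list length, the overlap and the motif.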

Additional observations from a re-analysis of the deposited data

How the results depend on the processing

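The number of helicase genes with a cold peak (11) was 9 with gene ends only, without Ddx6 and Dhx30, and 9 with each summit counted for its nearest gene end, without Ddx5 and Ddx59, while 5.64% and 4.91% of all protein-coding genes had one. It was 10 with a −log10 q of at least 3, without Ddx41 (6.3% of all protein-coding genes). With starts of the promoter table, an alternative added after the data were seen, it was 9, without Ddx6 and Dhx38. The share of all protein-coding genes was not computed for these starts. With windows of 500 bp or 3 kb, or with the interval in place of the summit, the number stayed at 11. The shares of all protein-coding genes were then 6.15%, 6.89% and 6.47%. Held to the 165 strongest cold peaks, 0 genes had a cold peak and 0 a peak in both lists, since no helicase summit ranks that high, and 0.905% of all protein-coding genes had a cold peak. The number at room temperature (2) fell to 1, Ddx17, with a −log10 q of at least 3, while 0.74% of all protein-coding genes had one. The ratio at Ddx17 (3.0) was 2.86 after division by the assumed depth ratio and 2.07 from the fold enrichments, within its interval. The share of helicase windows with the motif (8.62%) moved to 20.7% with ATGGCG, which 8.93% of all windows held, and to 13.8% with AANATGGC, added after the data were seen, which 6.05% of all windows held. Of the counts by role group that were above 0, 40 values stayed within 1.5 times and 9 moved. These were all 5 non-zero cold groups, to 0, among the strongest cold peaks, the mitochondrial group (to 0) and translation, export and decay (to 1) with gene ends only, the remaining genes (to 0) by the nearest gene end, and translation, export and decay at room temperature (to 0) under the stricter q. No paired analysis was possible because there was 1 library for cold and 1 for room temperature, and neither could be left out. The missing replicates and the unknown depths limit every comparison.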

Other observations

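Besides Dhx35, a pair of helicase windows held AANATGGC but not AANATGGCG, those of the ribosome biogenesis gene Ddx54 and of Dhx57, and neither gene had a listed peak. Among the 7 helicase windows that a cold peak overlapped, 3 held this form (42.9%), against 5 of the 51 others (9.8%). Over all windows of the table it stood in 585 of the 1075 overlapped by a cold peak (54.4%) and in 1403 of the 31776 not overlapped (4.42%). The form was tried after the window of Dhx35 had been seen, and Dhx35 is among the 3, so the helicase shares are a description. With AANATGGCG, 2 of the 7 (28.6%) held a match.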
